A study of Mus musculus with 5 samples.

Results

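The dermal papilla is a cluster of mesenchymal cells at the base of each hair follicle. It instructs the overlying epithelium when to grow and rest, and its signals are set by a small group of transcription factors. Levels of 9 such factors (Sox2, Sox18, Alx4, Prdm1, Tbx18, Foxd1, Trps1, Lef1 and Twist2) are described here in single cells of mouse dorsal skin. They were taken by name from the 28001 features of 4 unsorted libraries and the 31054 of 1 sorted library, and all 9 were matched by identifier in both. The list was drawn up with earlier results of these data known. Sox2 and Sox18 belong to the Sox family of HMG-box proteins, and Lef1 is an HMG-box protein through which Wnt signals act together with beta-catenin. Alx4 is a homeodomain protein, Tbx18 a T-box protein, Foxd1 a forkhead protein and Twist2 a basic helix-loop-helix protein. Prdm1, also called Blimp1, and Trps1, a GATA-type zinc finger protein, are known mainly as repressors.

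All mice were female and carried Lepr-Cre, which makes Cre recombinase where the leptin receptor gene Lepr is active, and mTmG, a reporter that changes from membrane tomato to membrane GFP in cells in which Cre has acted. Whole dorsal skin at postnatal day 46 gave 2 control libraries, titled Lepr-Cre;mTmG, and 2 libraries of the genotype Lepr-Cre;mTmG;Smo+/-. Smo encodes Smoothened, which passes on Hedgehog signals. The protocol writes the control as Lepr-Cre;mTmG;Smo, and the labels do not state what was done to the Smo allele. The libraries of a genotype are technical replicates per the labels, so every p-value below measures only the spread between preparations and not that between animals. GFP-positive cells sorted from Lepr-Cre;mTmG skin at postnatal day 50 gave 1 library, made with an older chemistry, and its levels were not tested against the others.

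The unsorted libraries held 10748 and 11072 (control) and 11563 and 11816 (Smo+/-) cell barcodes, of which 8097, 8248, 8389 and 8663 were kept, with medians of 8284 to 9764 UMIs (unique molecular identifiers, each 1 captured transcript). The sorted library kept 432 cells with a median of 2208.5 UMIs. Between 117 and 192 barcode sequences were shared by any pair of unsorted libraries, and 0 with the sorted one. Clustering gave 34 clusters, most of which fell into 12 classes named from marker genes and are called "-like", while 8 stayed unnamed. Papilla-like cells numbered 530 and 553 in control and 1322 and 1316 in Smo+/- libraries. In papilla-like cells Smo was at 32.9 and 34.9 CPM (UMIs of a gene per 1e6 UMIs of all genes) in control and 42.6 and 41.1 CPM in Smo+/- libraries. Hhip, a Hedgehog target, was at 17.2 and 17.7 against 201 and 191 CPM. YFP, a feature of the deposited gene list, was listed at 0 in control papilla-like cells and at 51.6 and 55.2 CPM in those of the Smo+/- libraries. The values of Smo, Hhip and YFP given here were further scaled between libraries by edgeR.

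Of the 16 papilla markers used for naming, 5 (Notum, Rspo3, Fgf10, Alpl and Inhba) were highest in papilla-like cells of control libraries. The other 11 were higher elsewhere, among them Crabp1 and Wif1 in the unnamed cluster 8, which was led by Fmod, Kera and Cck, and Corin and Vcan in dermal sheath-like cells. The name "papilla-like" therefore rests on Notum, Inhba and a part of the list. Smo+/- papilla-like cells lay in 2 clusters. Cluster 1 held 529 and 550 control and 892 and 869 Smo+/- cells, and cluster 14, led by Hhip, Wif1 and F5, held 1 and 3 control and 430 and 447 Smo+/- cells. Dermal sheath-like cells, the connective tissue sheath around the follicle, were split likewise into cluster 25 (101 and 126 against 92 and 117 cells) and cluster 20 (1 and 1 against 292 and 254 cells).

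Promoter windows from RefSeq (build GRCm38.p6, 250 bases before to 50 after a transcript start) were matched for 6 of the 9 members, in 9 windows. Sox18, Alx4 and Trps1 were not matched. The windows of Lef1 and Foxd1 are shown because these members stood farthest apart between papilla-like and fibroblast-like cells, in opposite directions. Capitals mark CTTTG or its reverse complement CAAAG, the core of the site bound by Lef1 and its Tcf relatives.
Lef1, chr3:131110047-131110346, plus strand: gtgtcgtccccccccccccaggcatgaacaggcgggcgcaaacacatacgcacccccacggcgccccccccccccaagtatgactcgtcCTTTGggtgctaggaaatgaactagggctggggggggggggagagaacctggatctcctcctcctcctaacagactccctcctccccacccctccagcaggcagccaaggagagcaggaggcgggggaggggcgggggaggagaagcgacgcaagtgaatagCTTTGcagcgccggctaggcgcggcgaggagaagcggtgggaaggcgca
Foxd1, chr13:98353995-98354294, plus strand: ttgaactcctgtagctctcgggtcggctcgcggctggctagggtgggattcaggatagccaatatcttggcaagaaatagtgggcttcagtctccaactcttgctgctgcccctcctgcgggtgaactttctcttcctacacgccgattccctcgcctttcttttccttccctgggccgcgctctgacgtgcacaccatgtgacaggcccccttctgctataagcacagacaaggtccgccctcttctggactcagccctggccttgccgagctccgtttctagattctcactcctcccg
The core occurred 2 times in this Lef1 window, 1 to 3 times in the other 3 Lef1 windows, 1 time each in the Sox2 and Prdm1 windows, and 0 times in those of Foxd1, Tbx18 and Twist2. On either strand it is held by 53.9% of the 32851 promoter windows, so its presence is common. The Gli site GACCACCCA, bound by the effectors of Hedgehog signalling, was in 0 of the members' windows and in 0.253% of all windows. An E-box, CANNTG, the kind of site that Twist2 binds, was in all members' windows except that of Twist2, and in 72.3% of all windows.

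In control skin, Lef1 and Alx4 were highest in papilla-like cells, while Sox2, Sox18, Prdm1, Tbx18, Foxd1, Trps1 and Twist2 were each highest in another cell group. The plot of levels by cell group shows the 4 libraries of each. Levels are CPM, with all UMIs of that class in a library as the total. They count transcript ends and are not set per length, so they are compared between cells and never between genes.

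**Figure D1:**
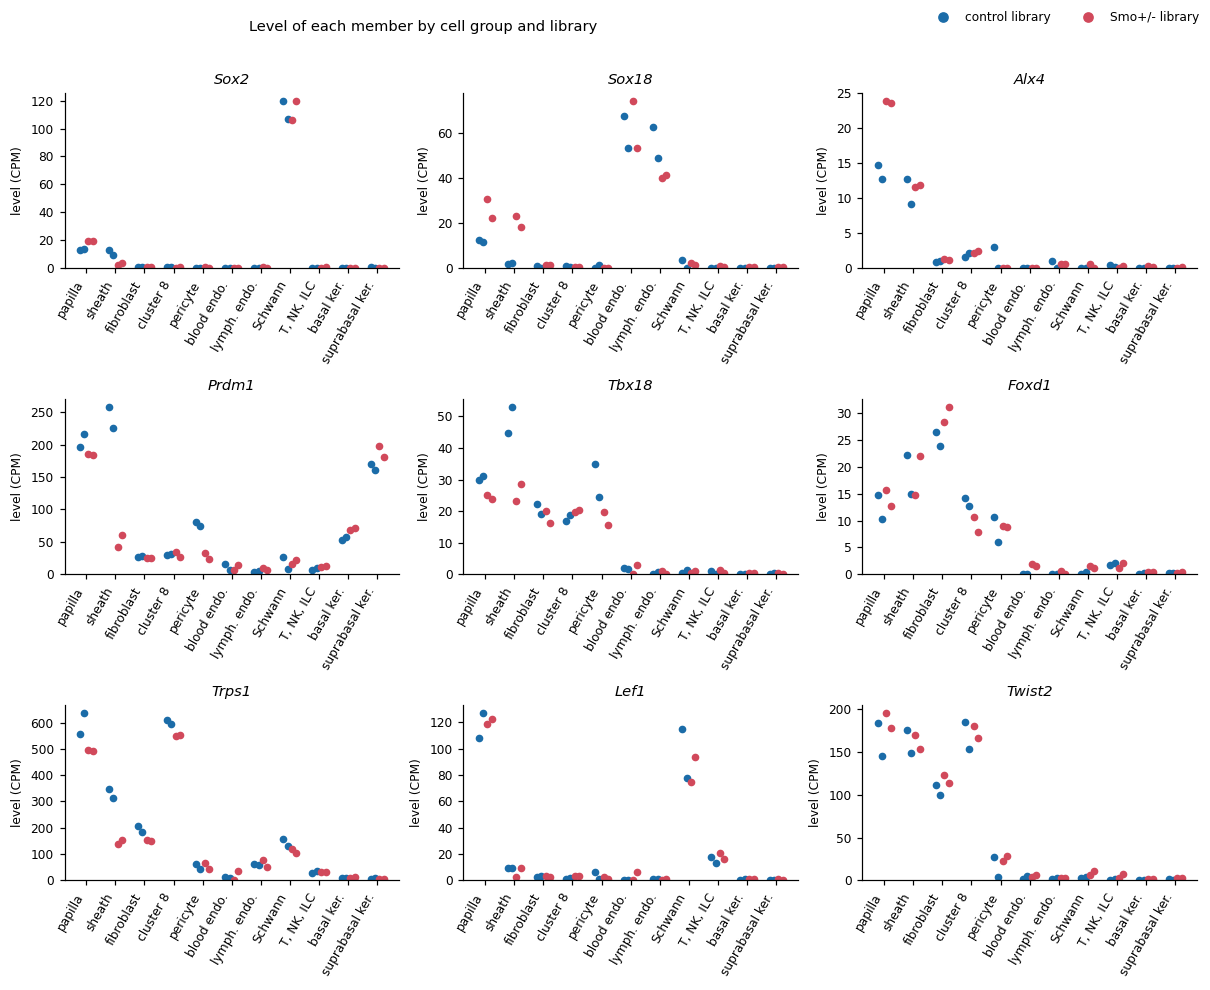
Level of each member (CPM, linear axis) in 11 cell groups, with 1 point per unsorted library (blue, control; red, Smo+/-). Sox2 peaks in Schwann-like cells and Sox18 in endothelial-like cells, whereas Alx4 is confined mostly to papilla-like and sheath-like cells, with control papilla-like values of 14.8 and 12.8 CPM.

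Sox2 (chr3:34650405-34652461, plus strand, 1 exon) marks papillae of the guard, awl and auchene hair types and also glial cells. Schwann-like cells held 120 and 107 CPM in control libraries, and papilla-like cells 12.6 and 13.8 CPM, far below. Dermal sheath-like cells were at 12.8 and 9.20 CPM, which overlaps the papilla-like values. Fibroblast-like cells were at 0.928 and 0.983 CPM. The gene lies within Sox2ot on the same strand, but their annotated exons do not overlap.

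Sox18 (chr2:181669836-181671640, minus strand, 2 exons) is known for its part in blood and lymph vessel development as well as in papilla cells. In control libraries blood endothelial-like cells were at 67.5 and 53.2 CPM and lymphatic endothelial-like cells at 62.5 and 48.9 CPM, and these ranges overlap. Papilla-like cells were at 12.5 and 11.3 CPM, below both. Sheath-like cells were at 1.59 and 2.30 CPM, from 1 and 2 UMIs, and fibroblast-like cells at 0.774 and 0.164 CPM.

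Alx4 (chr2:93642384-93681339, plus strand) stood at 14.8 and 12.8 CPM among the papilla-like cells of control libraries and at 12.8 and 9.20 CPM among their sheath-like cells. These 2 groups led and their nearest values were alike, while cluster 8 was at 1.57 and 2.11 CPM and fibroblast-like cells at 0.928 and 0.983 CPM. Its gene overlaps Ext2 on the other strand, without overlap of exons.

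Prdm1 (chr10:44437177-44528501, minus strand) was found in many cell groups. Sheath-like cells held 258 and 227 CPM, papilla-like cells 196 and 217 CPM, the unnamed cluster 27, led by the myeloid gene Clec4d, 182 and 170 CPM, and suprabasal keratinocyte-like cells 170 and 161 CPM in control libraries. The order of sheath-like and papilla-like cells held in both control libraries, with no overlap between the 2 groups. Fibroblast-like cells were at 26.5 and 28.2 CPM.

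Tbx18 (chr9:87702800-87731260, minus strand), a mark of the early dermal condensate, was at 44.6 and 52.9 CPM in sheath-like, 29.8 and 31.1 in papilla-like, 35.05 and 24.4 in pericyte-like and 22.3 and 19.0 in fibroblast-like cells of control libraries. The papilla-like range lay inside that of the pericyte-like cells. Foxd1 (chr13:98354242-98359305, plus strand, 1 exon) was at 26.6 and 23.9 CPM in fibroblast-like, 22.3 and 14.95 in sheath-like and 14.8 and 10.4 in papilla-like cells, so that fibroblast-like cells led. Exons of Tbx18 overlap those of an uncharacterised transcript on the other strand.

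Trps1 (chr15:50654752-50890463, minus strand) was at 608 and 596 CPM in cluster 8 and 557 and 635 CPM in papilla-like cells, which overlap. Sheath-like cells followed with 349 and 312 CPM and fibroblast-like cells with 205 and 185 CPM. Lef1 (chr3:131110471-131224356, plus strand) gave papilla-like cells 108 and 127 CPM and Schwann-like cells 114 and 77.3 CPM, again with overlap. The next group, the unnamed cluster 13 led by the follicle stem cell gene Lhx2, was at 17.4 and 18.4 CPM, and sheath-like cells were at 9.56 and 9.20 CPM. Twist2 (chr1:91801461-91848028, plus strand), a factor of dermal precursors, was at 185 and 154 CPM in cluster 8, 183 and 146 in papilla-like and 175 and 148 in sheath-like cells, which overlap. Fibroblast-like cells were lower, at 111 and 99.3 CPM. Exons of Lef1 and Twist2 overlap those of the antisense genes Gm43352 and Gm29100, which are counted separately.

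The share of papilla-like cells with at least 1 UMI was set beside that of basal keratinocyte-like cells. Each cell was thinned to 2000 UMIs, which left out 92, 84, 67 and 78 shallower papilla-like cells. A UMI of Lef1 was then expected in 19.3% ± 1.04 (SD, n = 2) of control papilla-like cells and in 0.169% and 0.139% of basal keratinocyte-like cells, an epithelial class taken as background for the members other than Prdm1, whose median depths were 16936 and 17274.5 UMIs against 4831 and 4800 UMIs. Without thinning the Lef1 shares were 46.2% and 47.0% against 1.56% and 1.78%. Trps1 was expected in 61.8% and 64.6% of thinned control papilla-like cells, Prdm1 in 31.9% and 32.2% and Twist2 in 19.5% and 17.6%. Tbx18 (7.14% and 6.08%), Sox2 (4.02% and 3.12%), Alx4 (3.30% and 2.21%), Foxd1 (2.59% and 1.88%) and Sox18 (2.49% and 1.80%) were found in few cells each. In basal keratinocyte-like cells of control libraries the thinned share was 1.85% in both for Trps1 and at most 0.146% (Twist2) for the other 6. Prdm1, at 52.1 and 56.9 CPM and in 7.63% and 8.04% of them, is expressed there and has no such background. At this depth 11.2% and 11.7% of control papilla-like cells had a UMI of none of the 9 members. Control sheath-like cells were near this, at 19.8% and 16.5%. The share was 48.6% and 51.6% in fibroblast-like and 90.3% and 90.4% in basal keratinocyte-like cells.

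The genes whose control level followed each member most closely over the 12 named classes were found by Pearson's r of log2(CPM + 1) among 11623 genes with at least 10 CPM in some class. These are descriptions of 12 points that share libraries, and the largest of so many coefficients is high by selection. For Sox18 they included Pecam1, a junction protein of endothelial cells (r = 0.93). For Alx4 the first was Wif1, a secreted Wnt inhibitor (0.95), and for Tbx18 the transcription factors Zic1 (0.98) and Shox2 (0.98). Shox2 was also among those of Twist2 (0.98), with Clmp first (0.98). For Foxd1 they were Pth1r (0.93), Cacna1g (0.92) and the Hedgehog effector Gli1 (0.91), and for Prdm1 they included the homeobox gene Msx2 (0.85). Sox2 followed Soga3 (0.99), Trps1 followed Abhd14a (0.95) and Lef1 followed Napg (0.93).

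Papilla-like cells of control libraries held more Lef1, Sox18, Alx4, Sox2, Prdm1 and Trps1 and less Foxd1 than fibroblast-like cells of the same libraries. A gene was called where edgeR's quasi-likelihood test, with the library as a block and Benjamini-Hochberg adjustment over all 13899 genes tested, gave an adjusted p under 0.05 and the log2 difference was at least 1. By this rule 7 of the 9 members were called, 6 higher and 1 lower, where 32.3% of all genes were called. Since the factors were listed as papilla genes, the higher direction of most was in the choice. The log2 difference was 5.14 ± 0.221 (SE) for Lef1, 4.31 ± 0.367 for Sox18, 3.55 ± 0.284 for Alx4, 3.48 ± 0.309 for Sox2, 2.64 ± 0.103 for Prdm1, 1.33 ± 0.0692 for Trps1 and -1.29 ± 0.170 for Foxd1. In fibroblast-like cells Sox18 rested on 5 and 1 UMIs in the control libraries, and Alx4 and Sox2 on 6 and 6 each. With a library left out the Sox18 difference ran from 3.67 to 5.65. Tbx18 differed by 0.28 ± 0.139 (adjusted p = 0.0855 by edgeR), and Twist2 by 0.36 ± 0.0649, under the fold required. With cells gated singly by marker scores Foxd1 was not called (-0.84).

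The same 7 members were called between these classes in Smo+/- libraries, where 26.9% of genes were called. Under that gating Foxd1 was not called here either (-0.20). Sox2 differed there by 4.24 ± 0.247 and Alx4 by 4.04 ± 0.205, against 3.48 and 3.55 in control. The test of whether the difference between classes changed with genotype called 0 of the 9 members (edgeR; 0 at an unadjusted p under 0.05) and 4.31% of genes. Without sub-clusters held almost only by 1 genotype it called Sox18 (-1.93, adjusted p = 0.0446 by edgeR). Sox18 had only 5 and 1 UMIs in fibroblast-like cells of the control libraries. The plot of papilla-like against fibroblast-like cells shows both genotypes side by side.

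**Figure D2:**
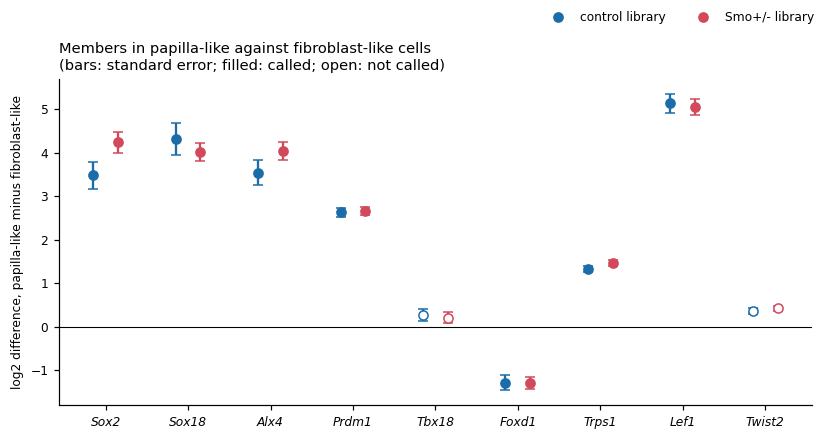
Log2 difference of each member, papilla-like minus fibroblast-like cells, in control (blue) and Smo+/- (red) libraries, with bars of 1 standard error; filled points were called and open points were not. Lef1 lies highest (5.14 in control) and Foxd1 is the only member below 0 (-1.29 in control). The points of the 2 genotypes lie on the same side of 0 for each member and are farthest apart for Sox2 (3.48 in control, 4.24 in Smo+/-).

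Against sheath-like cells of control libraries, which were nearly all of cluster 25, 2 members were called, and 14.4% of genes. Lef1 was higher in papilla-like cells by 3.57 ± 0.351 and Sox18 by 2.45 ± 0.596 on the log2 scale (edgeR). Sox18 rested on 3 sheath-like UMIs in all, a ratio of pooled levels of 5.94 with an exact 95% counting interval of 2.00 to 29.1, and without the first control library it was not called (2.15, adjusted p = 0.0569 by edgeR). Sox2 (0.21 ± 0.358), Alx4 (0.25 ± 0.332) and Twist2 (-0.07 ± 0.102) were not called. Trps1 (0.77 ± 0.0936), Tbx18 (-0.80 ± 0.211) and Prdm1 (-0.31 ± 0.113) had adjusted p-values under 0.05 but less than the fold required.

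Between genotypes, Sox18 was the 1 member called in papilla-like cells, and it rose. The other 8 were not called. All 9 were tested, and 5.46% of 13368 genes were called, 506 higher and 224 lower in Smo+/- libraries. Fewer cells of a type and less RNA per cell cannot be told apart where clusters are summed, so the values are levels within the class. The plot of members in papilla-like cells shows each library with its counting error.

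**Figure D3:**
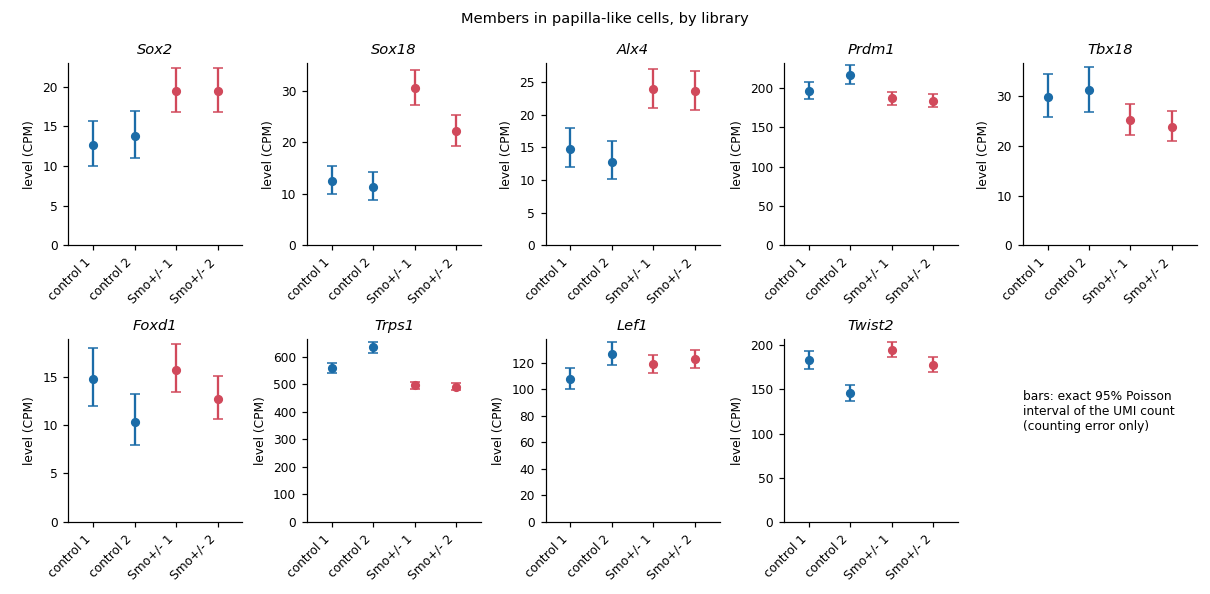
Level of each member (CPM, linear axis) in papilla-like cells of the 4 unsorted libraries, with exact 95% Poisson intervals of the UMI count, which cover counting error only. Both Smo+/- libraries lie above both control libraries for Sox2, Sox18 and Alx4 and below them for Prdm1, Tbx18 and Trps1, and the groups overlap for Foxd1, Lef1 and Twist2 between genotypes.

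Sox18 was at 12.5 and 11.3 CPM in control and 30.5 and 22.1 CPM in Smo+/- libraries, with no overlap. The log2 difference was 1.18 ± 0.163 (adjusted p = 3.04e-05, edgeR). Without the first Smo+/- library it was 0.94, under the fold required. The summed level of 10 blood endothelial markers, whose cells hold the most Sox18, was 168 and 184 CPM in control and 182 and 194 CPM in Smo+/- papilla-like cells. Of these markers 6 could be tested there and 3 rose. The summed lymphatic endothelial markers were at 51.3 and 16.7 CPM in control and 42.6 and 43.6 CPM in Smo+/- papilla-like cells. Of 5 tested 2 rose.

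Alx4 was at 14.8 and 12.8 CPM in control and 23.9 and 23.6 CPM in Smo+/- libraries, and Sox2 at 12.6 and 13.8 against 19.5 and 19.4 CPM. Neither pair of groups overlapped. The mean share of cells thinned to 2000 UMIs with a UMI of Alx4 was 2.75% in control and 5.05% in Smo+/- libraries. For Sox2 this share did not rise, at 3.57% in both, and without thinning it was 10.1% against 9.02%. The log2 differences of Alx4 and Sox2, 0.82 ± 0.130 (adjusted p = 0.000126) and 0.60 ± 0.135 (0.0028, both by edgeR), were under the fold required. With cells gated singly by marker scores both were called (1.14 and 1.43). Trps1 was at 557 and 635 CPM in control and 496 and 491 CPM in Smo+/- libraries, a difference of -0.23 ± 0.0642 (adjusted p = 0.0116, edgeR), also under it.

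The other 5 members had adjusted p-values above 0.05 by edgeR. Tbx18 was at 29.8 and 31.1 CPM in control and 25.05 and 23.7 CPM in Smo+/- libraries (-0.28 ± 0.107), and Prdm1 at 196 and 217 against 186 and 184 CPM (-0.12 ± 0.0669). Lef1 was at 108 and 127 against 119 and 123 CPM (0.08 ± 0.0760), so that the Smo+/- libraries lay between the controls. Foxd1 was at 14.8 and 10.4 against 15.8 and 12.7 CPM (0.21 ± 0.175), and Twist2 at 183 and 146 against 195 and 178 CPM (0.22 ± 0.0879). Prdm1 had a UMI in fewer thinned cells of both Smo+/- libraries, 25.6% and 25.4%, than of the controls, 31.9% and 32.2%. Such shares were compared by an exact permutation test, which with 2 libraries against 2 cannot go below 0.333 and gave 0.333 here (two-sided).

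Other genes around the members moved in the same comparison. These lists, like the members, were drawn up with earlier results of these data known. By the same rule 506 of all 13368 genes rose and 224 fell. Of 50 other mesenchymal transcription factors 43 were tested, 3 rose and 2 fell, with a median log2 difference of 0.21 against -0.003 for all genes. Among those that rose were Foxs1 (2.21 ± 0.467, from 0.625 CPM) and Heyl, a Notch target (1.59 ± 0.365, from 1.25 CPM). Foxp2 fell by 1.22 and Dlx3, a homeobox gene of hair cells, fell by 1.94 on the log2 scale. Of 10 Sox relatives tested 1, Sox5, rose (3.03 ± 0.434), from 0.465 to 3.91 CPM. Of 15 tested Tcf factors and partners of Lef1 0 were called by edgeR, with 7 at an unadjusted p under 0.05. At that threshold stood 5045 of all 13368 genes, so the 7 are not read as a result.

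Papilla signals held more calls. Of 29 tested, 15 rose and 2 fell, with a median of 1.04, where 5.46% of all genes were called. Wif1 rose by 2.85 ± 0.0647 (116.6 to 842 CPM), Igf1, a growth factor for the follicle epithelium, by 2.92 ± 0.116, Sostdc1, an inhibitor of Wnt and Bmp, by 2.71 ± 0.114 and Wnt5a by 2.56 ± 0.0892. Notum, an enzyme that inactivates Wnts, fell by 2.22, from 705 to 152 CPM. Of 10 tested Hedgehog targets 4 rose, by 1.87 to 3.49, among them Hhip, Ptch1 and Gli1. Markers moved with these. Of the 16 papilla markers 10 rose and 1 fell, of 12 fibroblast markers 8 rose and 0 fell in papilla-like cells, and of 10 sheath markers 8 rose and 0 fell. The papilla list also served to name the class, so its count is not independent of that naming. The papilla signals include Wif1, Sostdc1 and Notum of that list, so their count is not independent of it either. The summed levels of the fibroblast and sheath lists went from 1082 and 1046 to 2143 and 2075 CPM and from 405 and 369 to 927 and 879 CPM, and their part in the members' results was not tested.

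The higher Sox18 of Smo+/- papilla-like cells lay in cells that the control libraries all but lacked. Cluster 14 of the Smo+/- libraries held 82.3 and 62.5 CPM of Sox18, while cluster 1 held 9.49 and 6.47 CPM, below the 12.5 and 11.3 CPM of control cluster 1. Alx4 was at 41.3 and 47.9 CPM in cluster 14 against 16.8 and 14.2 CPM in cluster 1. Papilla-, sheath- and fibroblast-like cells were then clustered again together, with the members left out of the genes used. With sub-clusters dropped that held cells of nearly 1 genotype only, the Sox18 difference was -0.46 (adjusted p = 0.123, edgeR), that of Alx4 0.25 (adjusted p = 0.292) and that of Sox2 0.47 (adjusted p = 0.031), and 0 members were called.

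Among papilla-like cells several members ran in opposite directions, shown in the plot of sub-clusters. Sub-cluster 0 (308 control and 843 Smo+/- cells) was rich in Twist2, at 323 and 278 CPM in control and 306 and 291 CPM in Smo+/- libraries. In sub-cluster 2 (437 and 460 cells) Twist2 was at 22.6 and 29.3 CPM in control and 48.5 and 36.2 CPM in Smo+/- libraries. All 4 libraries thus showed the same order without overlap.
Trps1 ran the other way, at 335 and 409 CPM in control sub-cluster 0 and 849 and 869.8 CPM in control sub-cluster 2. Lef1 (84.9 and 96.2 against 142 and 163 CPM), Alx4 (6.11 and 4.37 against 25.4 and 21.9 CPM) and Sox18 (6.76 and 4.74 against 22.2 and 20.8 CPM) did the same, in every control library. Prdm1 (185 and 193 against 189 and 232 CPM) and Tbx18 (32.2 and 29.9 against 29.0 and 34.2 CPM) did not separate the 2 in this way. Foxd1 followed Twist2 (19.3 and 15.3 against 9.52 and 6.69 CPM), and Sox2 was at 9.65 and 10.9 against 13.9 and 17.1 CPM. Since clustering split cells of the same libraries, these are descriptions with no test.

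**Figure D4:**
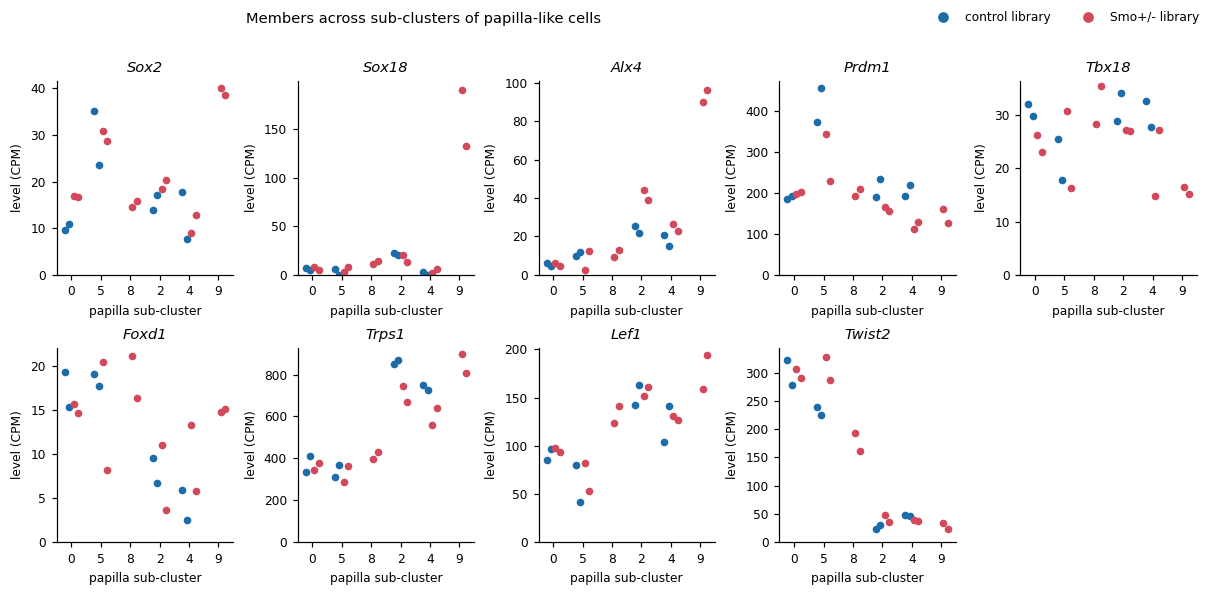
Level of each member (CPM, linear axis) in 6 sub-clusters of papilla-like cells, with 1 point per unsorted library that has at least 20 cells in it (blue, control; red, Smo+/-). Twist2 is high in sub-clusters 0, 5 and 8 and low in 2, 4 and 9, Trps1 and Alx4 are the reverse, and Sox18 stands out in sub-cluster 9 at 190 and 133 CPM.

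At 2000 UMIs, Twist2 was less common in papilla-like cells with Trps1 or Lef1 than in those without. Of control papilla-like cells with a UMI of Trps1, 13.7% had one of Twist2, against 28.0% of those without. Of cells with Lef1 9.28% had Twist2, against 21.3% of those without. In Smo+/- libraries these shares were 16.1% against 27.8% and 16.0% against 22.4%. The pairs with Prdm1, Tbx18 and Foxd1 did not keep 1 direction. In Smo+/- libraries Twist2 was more common with Prdm1 (23.5% against 20.2%), Tbx18 (23.2% against 21.0%) and Foxd1 (25.8% against 21.0%) than without, and in control libraries less common with Prdm1 (16.9% against 19.6%), Tbx18 (16.1% against 18.9%) and Foxd1 (16.0% against 18.8%). Cells of a library are not replicates, and these shares carry no test.

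Sub-cluster 2 was led by Rasd1, Hspa1a, Irf1, Egr1 and Fos, of which Egr1, Fos and Hspa1a are immediate early or heat shock genes, and sub-cluster 0 by Stc1, Mmp3 and Dio2. The median depth was 5216 UMIs in control cells of sub-cluster 2 and 8584.5 UMIs in those of sub-cluster 0. The part of these genes and of depth in the members' patterns was not tested. Sub-cluster 4 resembled sub-cluster 2 in Twist2 (46.4 CPM) and Trps1 (736 CPM) in control cells, with a median of 2297 UMIs, but had 1 UMI of Sox18 in all (1.37 CPM). Sub-cluster 5 (67 control and 94 Smo+/- cells), led by Mgp and Tnn, held the most Prdm1 (402 CPM) of the control sub-clusters and 31.1 CPM of Sox2. In its control cells the summed fibroblast markers, 3390 CPM, exceeded the summed papilla markers, 1866 CPM. Its summed sheath markers were at 1321 CPM, against 404, 282 and 455 CPM in control sub-clusters 0, 2 and 4. The same sub-cluster also held 404 sheath-like cells, so its name as papilla-like is not borne out by these markers.

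Smo+/- libraries had 2 sub-clusters of their own. Sub-cluster 9 (196 and 191 cells), with Sox18, Adamts15, Wnt5a and Ptch1 among its leading genes, held 190 and 133 CPM of Sox18, 90.4 and 96.5 CPM of Alx4, 39.97 and 38.6 CPM of Sox2, 896 and 809 CPM of Trps1 and 33.0 and 23.5 CPM of Twist2. Its Trps1 and Twist2 were thus near those of sub-cluster 2 and its Sox18, Alx4 and Sox2 higher, while Tbx18 (16.5 and 15.1 CPM) was below the 27.2 and 27.0 CPM and Foxd1 (14.8 and 15.1 CPM) above the 10.98 and 3.68 CPM of Smo+/- cells of sub-cluster 2. Its summed blood endothelial markers, 132 CPM, were below the 219 CPM of control sub-cluster 2. Ptch1 was at 1037 CPM there, against 103 CPM in Smo+/- cells of sub-cluster 2.
Sub-cluster 8 (230 and 249 cells), led by Ptx3 and Col14a1, held 193 and 161 CPM of Twist2, 395 and 428 CPM of Trps1 and 11.5 and 13.8 CPM of Sox18, closer to sub-cluster 0. Ptch1 was at 310 CPM in it. Control libraries had 0 cells in sub-cluster 9 and 6 in sub-cluster 8.

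Within the 4 sub-clusters that held at least 20 cells in every library, the genotypes were compared again, which was decided after the results were known. By edgeR 0 members were called in each of sub-clusters 0, 2, 4 and 5, where 4.12%, 4.82%, 2.87% and 0.37% of genes were. At an unadjusted p under 0.05 stood 1, 4, 2 and 2 of the 9, 9, 6 and 4 members tested. The share of all genes at that threshold was not counted here, so nothing is read from these numbers. Sox18 was at 5.73 and 6.20 CPM (means of control and Smo+/-, n = 2 libraries each) in sub-cluster 0 and at 21.4 and 16.9 CPM in sub-cluster 2, with log2 differences of 0.10 ± 0.350 and -0.32 ± 0.247. In sub-cluster 2 Alx4 differed by 0.87 ± 0.186 (adjusted p = 0.000757) and Twist2 by 0.75 ± 0.191 (0.00469), Prdm1 by -0.35 ± 0.0950 (0.00775) and Trps1 by -0.24 ± 0.0589 (0.00383, all by edgeR), each under the fold required. In sub-cluster 0 Sox2 differed by 0.74 ± 0.212 (adjusted p = 0.026, edgeR) and in sub-cluster 4 Prdm1 by -0.71 ± 0.188 (adjusted p = 0.0146, edgeR).
The make-up of the class shifted as well. Sub-cluster 2 took 40.9% and 39.8% of control and 17.6% and 17.2% of Smo+/- papilla-like cells, and sub-cluster 0 27.5% and 29.3% against 31.9% and 32.0%.

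In sheath-like cells 3 members were called between genotypes, with 6.54% of genes. Sox18 rose from 1.59 and 2.30 to 23.1 and 18.4 CPM (3.54 ± 0.518), Prdm1 fell from 258 and 227 to 42.5 and 60.1 CPM (-2.04 ± 0.153) and Sox2 fell from 12.8 and 9.20 to 2.26 and 3.47 CPM (-1.70 ± 0.492, adjusted p = 0.0226 by edgeR). None of the groups overlapped. With 3 control UMIs, the ratio of pooled Sox18 levels was 10.4, with an exact 95% counting interval of 3.51 to 50.8. Summed lymphatic endothelial markers in sheath-like cells went from 79.7 and 93.2 to 351 and 303 CPM, and 3 of 4 tested rose. Summed blood endothelial markers went from 102 and 106 to 74.6 and 70.7 CPM, with 2 of 5 tested higher and 1 lower. The part of such cells in the Sox18 difference was not tested. Sox2 rested on 8 UMIs in each control library, and it was not called by DESeq2 (adjusted p = 0.158) or with any 1 of the 4 libraries left out. Most Smo+/- sheath-like cells were of cluster 20, led by Igfbp4, Gpc3 and Lrrc15, which held 9.59 and 8.26 CPM of Prdm1 and 24.4 and 21.7 CPM of Sox18. In cluster 25, where both genotypes had cells, Prdm1 was at 259 and 227 CPM in control and 248 and 256 CPM in Smo+/- libraries. Sox18 there was at 1.60 and 2.30 against 15.01 and 5.87 CPM, from 3 and 17 UMIs in all. Without sub-clusters of 1 genotype 0 of 7 members tested were called in sheath-like cells, with Prdm1 at 0.024 and Sox2 at 0.16, and Sox18 did not pass the filter on low counts. With cells gated singly by marker scores 0 were called as well (Sox18 3.18, Prdm1 -0.83 and Sox2 -0.82; adjusted p = 0.0633, 0.392 and 0.565 by edgeR).

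Genotype differences in papilla-like and sheath-like cells were set against each other in 1 model. Sox2 (2.26 ± 0.491), Prdm1 (1.88 ± 0.152) and Sox18 (-2.40 ± 0.626) were called, against 4.99% of genes. Without the first control library Sox2 was not called (2.01, adjusted p = 0.1 by edgeR), and without the first or the second Sox18 was not (-2.13 and -2.83, adjusted p = 0.134 and 0.104 by edgeR). With cells gated singly 0 of the 3 were called (2.21, 0.69 and -1.60; adjusted p = 0.0887, 0.405 and 0.473 by edgeR). Between papilla-like and sheath-like cells of Smo+/- libraries Lef1, Sox2, Prdm1 and Trps1 were called higher, with 23.4% of genes. Without sub-clusters of 1 genotype the difference of Prdm1 there was -0.38, that is, lower in papilla-like cells, and Sox2 (0.52) and Trps1 (0.50, under the fold required) were not called, while Lef1 was (2.36). Single-cell gating added calls of Alx4 (1.02) and Foxd1 (-1.31).

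In fibroblast-like cells 7 members were tested and 0 were called by edgeR, with 1.52% of genes, and 0 by DESeq2. At an unadjusted p under 0.05 by edgeR stood 4 of the 7, and 2702 of all 12832 genes. With cells gated singly 2 were called, of which Sox18 (3.84) was 1. Trps1 was at 205 and 185 CPM in control and 154 and 151 CPM in Smo+/- libraries (-0.36 ± 0.0626). In the remaining 17 cell groups calls were few and at low levels. Basal keratinocyte-like cells gave 4 of 8 tested (2.56% of genes), Sox18, Tbx18, Foxd1 and Twist2, the last at 0.731 and 0.634 against 1.76 and 2.00 CPM and the others under 1 CPM. The class of T, NK and innate lymphoid-like cells gave 1 of 5 (3.84%), Twist2, at 0.926 and 1.504 against 2.28 and 6.89 CPM, and cluster 9, led by Fst and Pthlh, 1 of 3 (0.563%), Twist2 again. Papilla-like cells were 6.55% and 6.70% of control and 15.8% and 15.2% of Smo+/- cells, and the part of free RNA from them in these low values was not tested.

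The sorted GFP-positive library had 251 papilla-like, 68 fibroblast-like and 58 blood endothelial-like cells among 432, with 33 unnamed cells led by Rgs5 and 22 others. It is 1 library without a replicate, and its intervals are exact 95% Poisson intervals that cover counting error only. In papilla-like cells (557897 UMIs) Trps1 was at 423 CPM (371 to 481), Lef1 at 185 CPM (151 to 224), Prdm1 at 127 CPM (99.4 to 161), Alx4 at 62.7 CPM (43.7 to 87.2) and Sox2 at 25.1 CPM (13.7 to 42.1). Tbx18 was at 19.7 CPM (9.84 to 35.3), and Sox18 and Foxd1 were each at 10.8 CPM (3.95 to 23.4), from 6 UMIs.

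**Figure D5:**
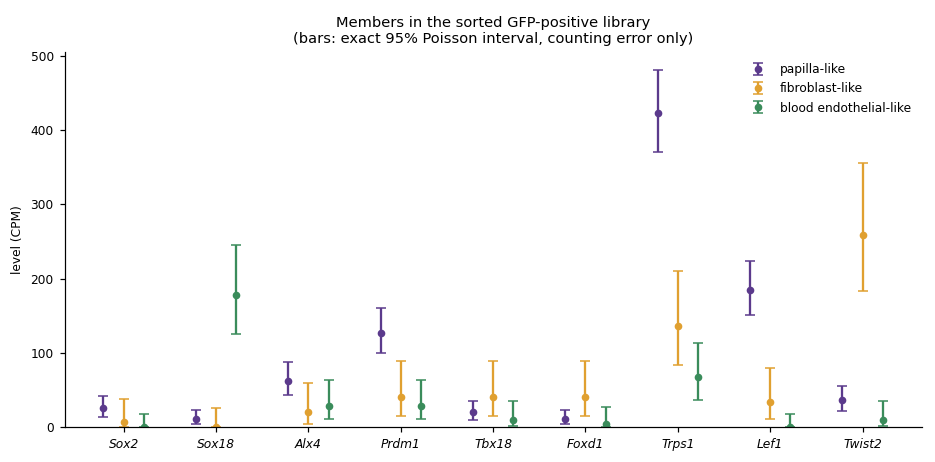
Level of each member (CPM, linear axis) in 3 cell classes of the sorted library, with exact 95% Poisson intervals (counting error only). Trps1, Lef1 and Prdm1 lie highest in papilla-like cells, Twist2 in fibroblast-like cells (259 CPM) and Sox18 in blood endothelial-like cells (178 CPM).

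Twist2 was a member whose order between papilla-like and fibroblast-like cells differed from that in whole skin. In sorted papilla-like cells it was at 35.8 CPM (21.9 to 55.4), from 20 UMIs, and in sorted fibroblast-like cells at 259 CPM (183 to 355), from 38 UMIs. In unsorted control libraries papilla-like cells held more of it than fibroblast-like cells, but their sub-clusters 2 and 4 held 26.1 and 46.4 CPM. The sorted value is set beside these only as a level, since chemistry, age and sorting all differ, and no test was made.
Sox18 was at 178 CPM (125 to 245) in sorted blood endothelial-like cells, with a UMI in 29 of 58 cells, and Sox2 and Lef1 had 0 UMIs there, which allows up to 14.4 CPM. Lef1 was at 225 CPM (144 to 335) in the unnamed cells led by Rgs5, and this interval overlaps that of sorted papilla-like cells. In whole skin the pericyte-like cells, for which Rgs5 was a marker, held 6.10 and 1.22 CPM of Lef1 in control libraries. Crabp1, a papilla marker, had a UMI in 10 of 10 sorted T, NK or innate lymphoid-like cells and in 50 of 58 blood endothelial-like cells. Whether this came from free RNA, doublets or another source was not tested. Low values outside papilla-like cells are therefore not read as expression. Alx4, for one, was at 28.9 CPM (10.6 to 62.8) in blood endothelial-like cells, from 6 UMIs.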

How the data were processed

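Each deposited matrix lists whole-number UMI counts of features in cell barcodes that the authors had selected. The submitters' processing notes name Cell Ranger 2.1.1 and 3.1.0, Scanpy 1.6.0, Seurat 3.2.2 and the builds mm10 and GRCm38, and the filter that left these barcodes is not given in the sources used here. The members and gene lists were chosen with earlier results of these data known.

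Cells of 500 to 8000 genes (sorted library, from 300) and at most 10% mitochondrial UMIs were kept. Scrublet in scanpy 1.11.5 marked 152 to 181 doublets per unsorted library, which were removed, and the sorted library was not screened. Cells were clustered with leidenalg 0.10.2 at resolution 1.0 on 2000 variable genes, without the members, other mesenchymal transcription factors, Hedgehog targets, Lepr, Smo, reporters and mitochondrial genes. Clusters were named from 20 marker lists by thresholds set with the clusters in view (3 markers or more, each in a share of 0.1 of the cells and 1 higher in log2), so names are rebuilt here.

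UMIs were summed per library and class with at least 20 cells. The main test was edgeR 4.0.16 with TMM scaling and filterByExpr. It used the quasi-likelihood F-test, adjusted over all genes by Benjamini-Hochberg, and was tested on simulated data. TMM scaling also enters the printed levels of Smo, Hhip and YFP and those of listed genes compared between genotypes in papilla-like cells. It enters the Sox18 means compared between genotypes within sub-clusters as well. The members' other levels are plain CPM. DESeq2 1.42.0, other scalings, filters, clusterings and gates, and leaving out each library, were alternatives. Besides the members, the text names up to 5 called genes of each list with the largest change and genes among the 3 closest to each member. A few genes counted in the lists are not reported here. Gene positions are from the GENCODE annotation of GRCm38. Depth limits precision as the UMI numbers show.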

Additional observations from a re-analysis of the deposited data

Results flagged for a closer look

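The genotype difference of 3 members was not the same in papilla-like and dermal sheath-like cells by the interaction term of the edgeR model. For Sox2 the difference in papilla-like cells exceeded that in sheath-like cells by 2.26 on the log2 scale, for Prdm1 the excess was 1.88 and for Sox18 it was -2.40. Papilla-like levels of Sox2 were higher and sheath-like levels lower in both Smo+/- libraries than in both control libraries. Cluster 20, found almost wholly in Smo+/- libraries, made up most of their sheath-like cells, and without sub-clusters of 1 genotype the interaction was 0.31 for Sox2, -0.073 for Prdm1 and -2.67 for Sox18 (adjusted p = 0.898, 0.912 and 0.0727 by edgeR), so 0 of the 3 were called. With cells gated singly by marker scores it was 2.21, 0.69 and -1.60 (adjusted p = 0.0887, 0.405 and 0.473 by edgeR), and 0 were called.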

How the results depend on the processing

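Of 1160 recomputed values, 1097 kept their call or count, 23 lost a call, 14 gained one, 19 moved and 7 reversed. Reversed means a change of sign where either value was called. Changes of sign between values that were not called are among the 1097. Lef1 between genotypes in papilla-like cells was such a case, at 0.08 and at -0.021 without sub-clusters of 1 genotype. The 7 calls between papilla-like and fibroblast-like cells of control libraries were 7 in every alternative except single-cell gating by marker scores, with 6. The count of members called between genotypes in papilla-like cells was 1, and 3 with single-cell gating (Sox2, Sox18 and Alx4; 1426 of 3721 papilla-like cells passed the gate), 0 without sub-clusters of 1 genotype, and 0 to 1 with a library left out (0 without the first Smo+/- library). In papilla sub-clusters 0, 2, 4 and 5 alone, an alternative chosen after seeing the data, it was 0, and 451, 519, 183 and 15 genes were called. Genes called in papilla-like cells were 730, and 483 by DESeq2 and 648 to 790 with a library left out. Reversed values were Sox18 in papilla-like cells without sub-clusters of 1 genotype (-0.46) and in sub-cluster 2 alone (-0.32); without sub-clusters of 1 genotype also Sox2 (0.16) and Prdm1 (0.024) between genotypes in sheath-like cells, and Prdm1 between papilla-like and sheath-like cells in Smo+/- libraries (-0.38) and in the interaction (-0.073); and with single-cell gating Twist2 between papilla-like and sheath-like cells of control libraries (1.11). These settings changed which cells were summed, and the cause was not tested. Replicate numbers did not pair the libraries (r = -0.0045 over 13368 genes), and with the replicate block 1 member and 773 genes were called in papilla-like cells. Sox2, Sox18, Alx4 and Foxd1 rest on 64 to 312 UMIs per library in papilla-like cells, and in sheath-like control cells on 1 to 14. In fibroblast-like control cells Sox2, Sox18 and Alx4 rest on 1 to 6.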
